A study of Mus musculus with 12 samples.

Results

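The nuclear receptors Nr1i2, Nr1i3, Nr1h4, Nr1h3, Rxra, Ppara, Hnf4a, Esr1 and Nr3c1 and the aryl hydrocarbon receptor Ahr were examined in livers with graded activity of the transcription factor Nrf2. These 10 genes were chosen by gene symbol, as transcription factors through which the liver senses drugs, bile acids, fatty acids, steroids and dioxin-like chemicals, and all 10 were measured among the 5856 genes that a probe set with a single gene symbol read. Of the 8554 such probe sets, 17 belonged to the 10 genes. The rule used gene symbols only.

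Hepatic mRNA was profiled on Affymetrix Mouse 430 2.0 arrays in 3 male mice of each of 4 genotypes at 8 weeks of age, 12 arrays in all, with 1 liver on each array. Nrf2-null mice lack Nfe2l2, the gene of Nrf2. Keap1-KD mice carry a floxed Keap1 allele that lowers Keap1, the adaptor through which Nrf2 is ubiquitinated and degraded, in the whole body. Keap1-HKO mice came from crossing Keap1-KD mice with AlbCre+ mice, whose Cre is driven in hepatocytes by the albumin promoter, so these livers carry the knockdown allele in all of their other cells. Wild-type mice were the control. All mice were naive and on the C57BL/6 background.

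Nuclear receptors are transcription factors that bind DNA through zinc fingers and change activity when a small lipophilic molecule occupies their pocket. Nr1i3 (constitutive androstane receptor, CAR) and Nr1i2 (pregnane X receptor, PXR) switch on drug-metabolizing enzymes and transporters, Nr1h4 (farnesoid X receptor, FXR) senses bile acids, Nr1h3 (liver X receptor alpha) senses oxysterols, and Ppara senses fatty acids. Each of these binds DNA as a heterodimer with a retinoid X receptor, of which Rxra is the main one in liver. Hnf4a works as a homodimer and holds hepatocytes in their differentiated state, Esr1 (estrogen receptor alpha) and Nr3c1 (glucocorticoid receptor) are steroid receptors, and Ahr is a basic helix-loop-helix protein that pairs with Arnt to induce Cyp1 genes.

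The promoter of Nr1i3 is shown because it was the single gene of the 10 whose mRNA passed the test between genotypes, and those of Nr1h4 and Ppara because the mRNAs of this pair ran together over the arrays. The sequences are RefSeq windows of 300 bases on GRCm38.p6, from 250 bases before to 50 bases after the start site, in the direction of transcription. Capitals mark a match to 1 of the motifs searched on both strands: the antioxidant response element core TGACNNNGC, the dioxin response element core GCGTG, the E-box CACGTG and the nuclear receptor hexamer AGGTCA. The Nr1i3 window lies at chr1:171213720-171214019 on the plus strand, the Nr1h4 window at chr10:89506609-89506908 on the minus strand and the Ppara window at chr15:85735526-85735825 on the plus strand.
Nr1i3: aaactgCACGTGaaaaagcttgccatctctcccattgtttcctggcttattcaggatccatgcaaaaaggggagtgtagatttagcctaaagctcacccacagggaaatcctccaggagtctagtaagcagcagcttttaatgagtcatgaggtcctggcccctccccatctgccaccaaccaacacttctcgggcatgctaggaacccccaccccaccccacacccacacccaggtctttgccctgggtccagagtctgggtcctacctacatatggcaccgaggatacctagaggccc
Nr1h4: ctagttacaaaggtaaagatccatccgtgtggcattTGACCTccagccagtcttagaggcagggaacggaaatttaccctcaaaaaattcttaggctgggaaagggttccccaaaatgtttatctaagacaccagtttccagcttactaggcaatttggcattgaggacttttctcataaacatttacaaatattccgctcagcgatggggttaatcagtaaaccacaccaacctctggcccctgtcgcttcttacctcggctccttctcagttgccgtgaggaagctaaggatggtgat
Ppara: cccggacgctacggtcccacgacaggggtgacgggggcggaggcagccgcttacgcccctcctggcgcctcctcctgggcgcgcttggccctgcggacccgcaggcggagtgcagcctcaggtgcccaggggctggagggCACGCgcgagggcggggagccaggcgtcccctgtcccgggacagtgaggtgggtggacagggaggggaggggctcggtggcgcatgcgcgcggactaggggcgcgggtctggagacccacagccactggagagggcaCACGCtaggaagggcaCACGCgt

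The Nr1i3 window held 1 E-box, starting 244 bases before the start site, and none of the other motifs. The Nr1h4 window held 1 nuclear receptor hexamer and the Ppara window 3 dioxin response element cores, all on the opposite strand. The antioxidant response element core, to which Nrf2 binds with small Maf proteins, was in 0 of the 12 promoter windows found for 8 of the 10 genes, and in 12.4% of all 32851 windows of the same length. The E-box was in 7.15% of all windows, the hexamer in 16.3% and the dioxin response element core in 32.4%. A match to letters is not a site in use, and these windows are short. The study searched farther upstream and lists a putative antioxidant response element core for Nr1i3 outside the window shown. Promoters of Ahr and Nr3c1 were not analysed here.

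The targeted genes followed the labels. The log2 intensity of Nfe2l2 lay between 2.29 and 2.46 in Nrf2-null livers, against 8.81 to 8.94 in wild-type livers, and Keap1 differed from wild-type livers by -2.16 log2 units in Keap1-KD and by -4.51 in Keap1-HKO livers. The median of 8 hepatocyte markers was close to the top of the scale on every array, at 15.5 to 15.7. Of these, Apoa1 and Tat were called lower in Keap1-HKO than in Nrf2-null livers (limma, adjusted p = 0.0448 and 0.0245), where 4.63% of all genes were. Medians of Kupffer cell and stellate cell markers ran from 8.68 and 7.63 in Keap1-HKO replicate 1 to 10.07 and 9.09 in wild-type replicate 2. No listed cholangiocyte or lymphocyte marker was among the genes tested. Replicate 1 of Keap1-HKO and replicate 1 of Nrf2-null stood apart, with a mean deviation from their group medians of 0.84 and 0.52 log2 units, where the other 10 arrays had 0.07 to 0.18. Pancreas acinar transcripts had median log2 intensities of 14.2 and 10.97 in Keap1-HKO replicates 2 and 3 and of at most 2.38 on all other arrays, and skeletal muscle transcripts were at 10.9 and 9.50 in the same livers and at 10.4 in wild-type replicate 2. The Keap1-HKO group thus had no array free of these departures.

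Of the 10 genes, Nr1i3 differed between genotypes and the other 9 did not pass the test. Differences were tested with limma over all 4 genotypes, and genes were called at a Benjamini-Hochberg adjusted p under 0.05 over 5856 genes. In the overall moderated F test 1 of the 10 was called, where 4.83% of all genes were called. The adjusted p of Nr1i3 was 0.00813 and those of the other genes ran between 0.472 for Esr1 and 0.963 for Rxra. Against wild-type livers, 0 of the 10 were called in Nrf2-null livers (0.41% of all genes), 0 in Keap1-KD livers (0.0683%) and 0 in Keap1-HKO livers (3.94%). At an unadjusted p under 0.05, Nr1i3 was below wild-type in Nrf2-null livers and above it in Keap1-HKO livers, and none of the others passed in any comparison with wild-type. At that threshold 6.92% of all genes passed in Nrf2-null livers, 2.54% in Keap1-KD livers and 18.6% in Keap1-HKO livers. These results used, for each gene, the probe set with the highest mean. On another probe set, Esr1 was 0.86 log2 units above wild-type in Nrf2-null livers (limma, unadjusted p = 0.0248, adjusted p = 0.628). Another probe set of Hnf4a was 0.45 above wild-type in Keap1-HKO livers (limma, unadjusted p = 0.027, adjusted p = 0.198). Duncan's multiple range test on log2 values, which the study's methods name and which has no adjustment over genes, passed Nr1i3 alone in Nrf2-null (5.4% of all genes) and in Keap1-HKO livers (12%), and 0 of the 10 in Keap1-KD livers (2.25%).

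**Figure D1:**
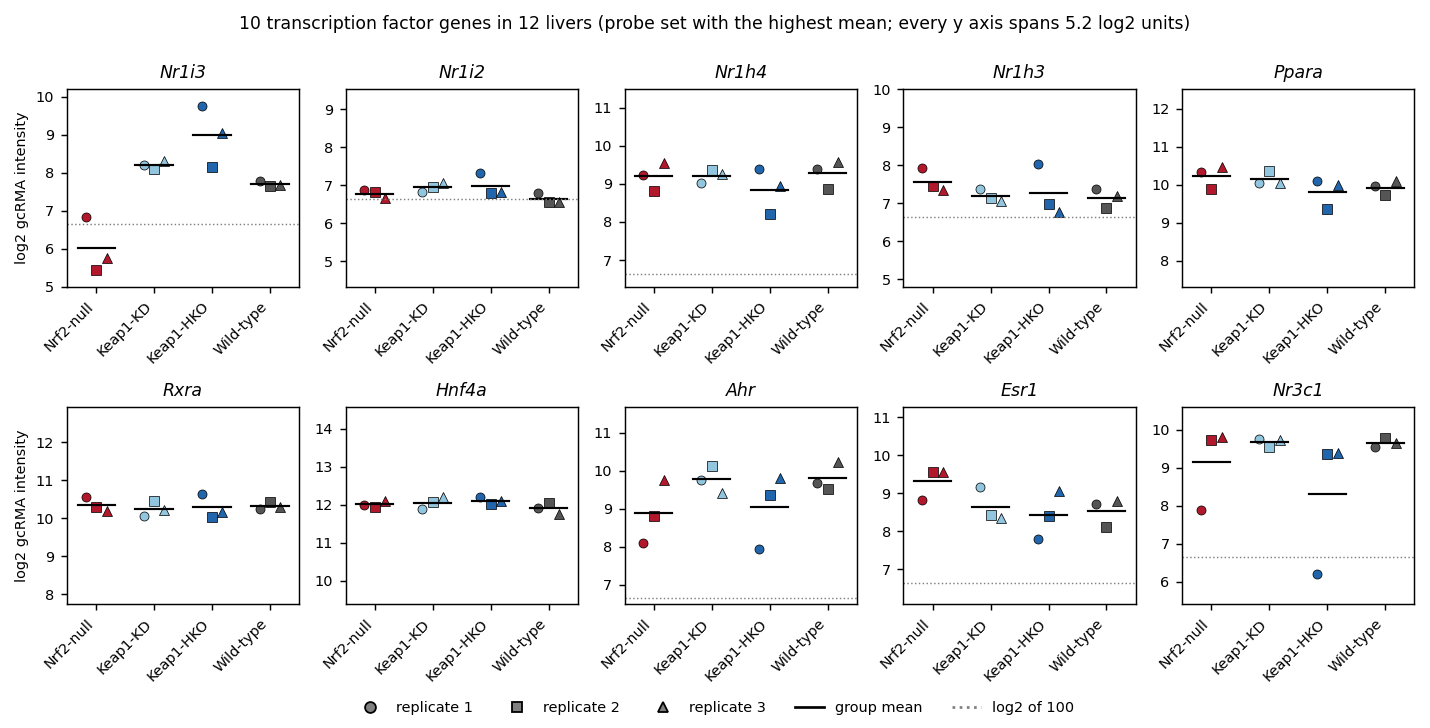
Log2 gcRMA intensity (y axis) of the 10 genes on each of 12 arrays by genotype (x axis), with 1 symbol per replicate and a bar at the group mean; the dotted line is the log2 of an intensity of 100. Nr1i3 is lowest in Nrf2-null livers (5.45 to 6.84) and higher in Keap1-KD (8.11 to 8.31) and Keap1-HKO livers (8.14 to 9.75), with wild-type livers (7.66 to 7.78) in between, while Nr3c1 and Ahr are low on replicate 1 of both Nrf2-null and Keap1-HKO.

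Nr1i3 mRNA rose in group mean from Nrf2-null through wild-type and Keap1-KD to Keap1-HKO livers. Its log2 intensity was 6.84, 5.45 and 5.76 in Nrf2-null livers, 8.20, 8.11 and 8.31 in Keap1-KD livers and 9.75, 8.14 and 9.05 in Keap1-HKO livers, against 7.78, 7.66 and 7.69 in wild-type livers (replicates 1, 2 and 3). Every Nrf2-null array was below every wild-type array, every Keap1-KD and Keap1-HKO array was above every wild-type array, and the Keap1-KD and Keap1-HKO arrays overlapped. Singly, these separations held for 8.76%, 7.02% and 12.7% of all genes. This arrangement was met by 46 of the 5856 genes, or 0.786%, and the opposite one by 21 genes. On the linear scale the Nr1i3 intensity differed from the wild-type mean by -66.1% ± 10.6 in Nrf2-null, by 41.4% ± 5.91 in Keap1-KD and by 166% ± 80.0 in Keap1-HKO livers (SEM, n = 3), and these differences from wild-type are description, since none passed the test. In bulk liver, fewer cells of a type and less RNA per cell cannot be told apart.

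The called differences of Nr1i3 were those of Keap1-HKO and of Keap1-KD livers from Nrf2-null livers. Between Keap1-KD and Keap1-HKO livers the difference was 0.77 log2 units and was not called (limma, adjusted p = 0.454). Keap1-HKO livers were 2.96 ± 0.41 log2 units above Nrf2-null livers (SE; limma, adjusted p = 0.00141), or 7.79-fold, where 9.14% of all genes were called in either direction. Keap1-KD livers were 2.19 ± 0.41 log2 units above Nrf2-null livers (limma, adjusted p = 0.0269), where 1.37% were called. With every intensity under 100 set to 100, which touches Nrf2-null replicates 2 and 3, these differences were 2.27 and 1.50 log2 units and both remained called. The call between Keap1-KD and Nrf2-null livers was lost when 1 array of wild-type, 1 of Keap1-KD or Nrf2-null replicate 2 or 3 was left out, with an adjusted p of up to 0.117 by limma, and the call between Keap1-HKO and Nrf2-null livers held without any 1 array.

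A linear trend with equal steps up the scale of Nrf2 activity, with Nrf2-null lowest, wild-type next, then Keap1-KD and Keap1-HKO at the top, gave Nr1i3 a slope of 0.94 ± 0.13 log2 units per step (SE; limma, adjusted p = 0.00135), and an exact two-sided permutation test over 369600 assignments of the arrays gave p = 1.62e-05. With genotypes shuffled only within each replicate number, a test added after the data were seen because arrays with 1 number deviated together, p was 0.000145 over 13824 assignments, the smallest that this exact test can give. In this trend 9.2% of all genes were called. Among the 264 genes called as rising, 32 had a steeper slope than Nr1i3. Group means rose in this order in 8.23% of all genes. The adjusted p of the Nr1i3 slope was at most 0.00758 without any 1 array.

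The distance of Nr1i3 from wild-type depended on single arrays. In Nrf2-null livers it was -1.69 ± 0.41 log2 units (SE; limma, adjusted p = 0.203), in Keap1-KD livers 0.50 (adjusted p = 1) and in Keap1-HKO livers 1.27 ± 0.41 (limma, adjusted p = 0.134). The lowest Keap1-HKO value, 8.14, was in replicate 2, the liver with the highest pancreas transcripts, and the highest, 9.75, in replicate 1, which stood apart. Without Keap1-HKO replicate 2 the Keap1-HKO difference was 1.69 (limma, adjusted p = 0.0379). It was not called without any other single array, with an adjusted p of up to 0.320 by limma, and without Keap1-HKO replicate 1 alone it was 0.89 (limma, adjusted p = 0.265). Without replicate 1 of both Keap1-HKO and Nrf2-null, the differences from wild-type were 0.89 in Keap1-HKO livers (limma, adjusted p = 0.0377) and -2.10 in Nrf2-null livers (limma, adjusted p = 0.00205), and both were then called. The part of the pancreas transcripts in the Nr1i3 level was not tested.

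**Figure D2:**
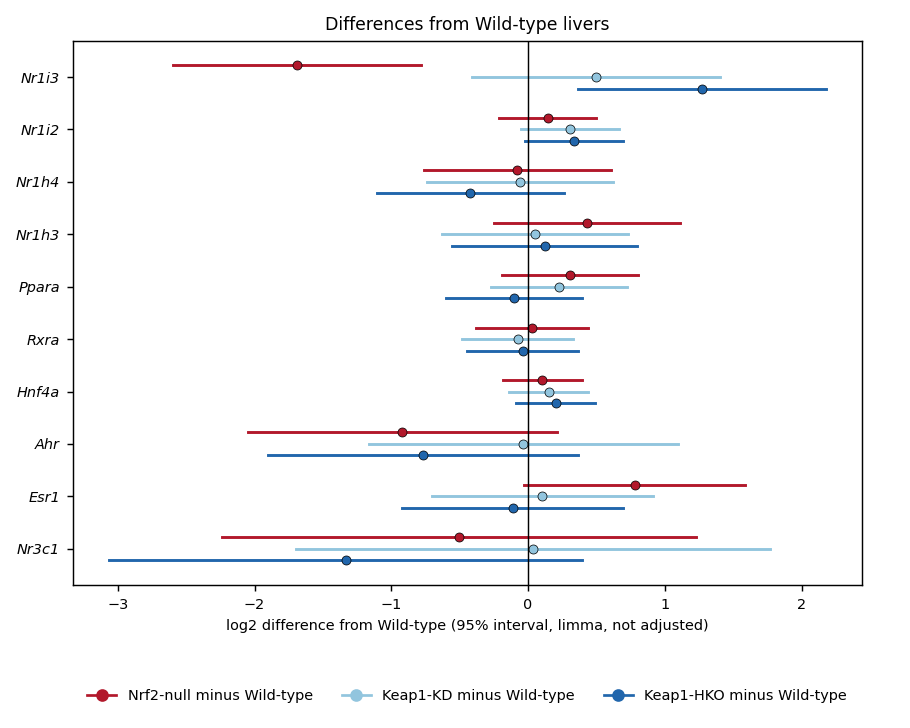
Log2 difference from wild-type (x axis) of each of the 10 genes (y axis) in each other genotype; points are limma estimates and bars their 95% intervals, not adjusted for the number of genes. Each gene is read by its probe set with the highest mean. The interval excludes 0 for Nr1i3 in Nrf2-null and Keap1-HKO livers and for no other gene, and it is wide for Ahr and Nr3c1.

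Nr1i2, the receptor closest to Nr1i3 in sequence and in targets, lay close to the intensity of 100 that the study used to select probe sets. Its log2 intensity was 6.86, 6.81 and 6.66 in Nrf2-null livers, 6.81, 6.96 and 7.04 in Keap1-KD livers and 7.31, 6.79 and 6.81 in Keap1-HKO livers, against 6.80, 6.54 and 6.56 in wild-type livers, where 6.64 is the log2 of an intensity of 100. All Keap1-KD arrays lay above all wild-type arrays, which held for 7.02% of all genes, and the difference was 0.30 log2 units with a 95% interval of -0.05 to 0.66 (limma, adjusted p = 1). In Keap1-HKO livers it was 0.33 with an interval of -0.02 to 0.69 (limma, adjusted p = 0.293), and 0.17 without replicate 1.

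The bile acid receptor Nr1h4 and the fatty acid receptor Ppara did not pass between genotypes. Nr1h4 measured 9.23, 8.81 and 9.55 log2 units in Nrf2-null livers, 9.03, 9.36 and 9.26 in Keap1-KD livers and 9.39, 8.22 and 8.95 in Keap1-HKO livers, against 9.40, 8.86 and 9.57 in wild-type livers. Ppara measured 10.34, 9.89 and 10.46 in Nrf2-null livers, 10.05, 10.36 and 10.04 in Keap1-KD livers and 10.10, 9.37 and 9.99 in Keap1-HKO livers, against 9.96, 9.72 and 10.09 in wild-type livers. Both genes had their lowest value in Keap1-HKO replicate 2, the liver with the most pancreas and muscle transcripts. Wild-type replicate 2, which held muscle transcripts, and Nrf2-null replicate 2, which did not (muscle median 2.37), were also the lowest of their groups for both genes. Keap1-KD replicate 2, with a muscle median of 2.39, was the highest of its group for both. Keap1-HKO replicate 3 held muscle transcripts and was not the lowest. The part of these transcripts in the 2 genes was not tested. The Keap1-HKO difference from wild-type was -0.42 log2 units for Nr1h4 (95% interval -1.10 to 0.26; limma, adjusted p = 0.445) and -0.10 for Ppara (-0.60 to 0.39; limma, adjusted p = 0.785), and without Keap1-HKO replicate 2 these values were -0.11 for Nr1h4 and 0.12 for Ppara.

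Nr1h3 and Rxra showed no difference that passed. Nr1h3, the oxysterol receptor, measured 7.92, 7.45 and 7.35 log2 units in Nrf2-null livers, 7.38, 7.13 and 7.07 in Keap1-KD livers and 8.03, 6.97 and 6.77 in Keap1-HKO livers, against 7.38, 6.86 and 7.18 in wild-type livers. The single high Keap1-HKO value was that of replicate 1, and the Keap1-HKO difference from wild-type was 0.12 with it and -0.27 without it. Rxra, the shared partner, differed from wild-type by 0.03 log2 units in Nrf2-null, -0.08 in Keap1-KD and -0.04 in Keap1-HKO livers, with 95% intervals that reached from -0.48 to 0.44 at most. Its 12 values lay between 10.03 and 10.65.

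Hnf4a was the gene of the 10 with the least spread within genotypes, a within-genotype SD of 0.12 log2 units. Its brightest probe set read 11.98, 11.95 and 12.10 in Nrf2-null livers, 11.90, 12.08 and 12.20 in Keap1-KD livers and 12.22, 12.02 and 12.10 in Keap1-HKO livers, against 11.93, 12.05 and 11.75 in wild-type livers. The groups overlapped, and the differences from wild-type were 0.10, 0.15 and 0.20 in the order Nrf2-null, Keap1-KD and Keap1-HKO, with adjusted p of 0.835, 1 and 0.405 by limma. On a second probe set of Hnf4a the arrays of every other genotype lay above all wild-type arrays, by 0.28 log2 units on average in Nrf2-null, 0.34 in Keap1-KD and 0.45 in Keap1-HKO livers. Such a separation held for 12.1%, 7.02% and 12.7% of all genes, and the limma adjusted p over all probe sets were 0.833, 1 and 0.198. On the third probe set of Hnf4a every other genotype overlapped wild-type, with differences of 0.41, 0.19 and 0.32 log2 units in the same order.

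The estrogen receptor Esr1 ran opposite to Nr1i3 between the ends of the series, and its call depended on the probe set. On the brighter probe set its log2 intensity was 8.82, 9.57 and 9.57 in Nrf2-null livers, 9.17, 8.42 and 8.34 in Keap1-KD livers and 7.80, 8.41 and 9.07 in Keap1-HKO livers, against 8.71, 8.10 and 8.81 in wild-type livers. Every Nrf2-null array was above every wild-type array, which held for 12.1% of all genes, while the other groups overlapped wild-type. The Nrf2-null difference from wild-type was 0.78 ± 0.36 log2 units (SE; limma, adjusted p = 0.74), and that of Keap1-HKO from Nrf2-null livers was -0.89 (limma, adjusted p = 0.181), with Keap1-HKO replicate 3 above Nrf2-null replicate 1.

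The dimmer Esr1 probe set read 7.45, 8.16 and 7.96 in Nrf2-null livers, 7.45, 6.80 and 6.60 in Keap1-KD livers and 5.80, 6.42 and 6.97 in Keap1-HKO livers, against 7.15, 6.69 and 7.15 in wild-type livers. Here no Keap1-HKO array reached a Nrf2-null array, and the share of all probe sets separated in this way was not computed. Tested as its own feature among 8554 probe sets, it fell by 1.46 log2 units in Keap1-HKO relative to Nrf2-null livers (limma, adjusted p = 0.0198, where 9.67% of probe sets were called). Its slope was -0.44 per step (limma, adjusted p = 0.0232, where 9.78% were called). In the overall moderated F test over all probe sets it was not called (limma, adjusted p = 0.108). This probe set was under an intensity of 100 on Keap1-HKO replicates 1 and 2 and on Keap1-KD replicate 3, so these sizes rest on the low end of the scale. With every intensity under 100 set to 100, a setting added after the data were seen, they were -1.10 log2 units (limma, adjusted p = 0.0199) and -0.33 per step (limma, adjusted p = 0.0234), where 8.35% and 8.66% of probe sets were called. Both probe sets ran together over the arrays, with Pearson r = 0.93 and Spearman rho = 0.90 over 12 arrays that share their RNA.

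**Figure D3:**
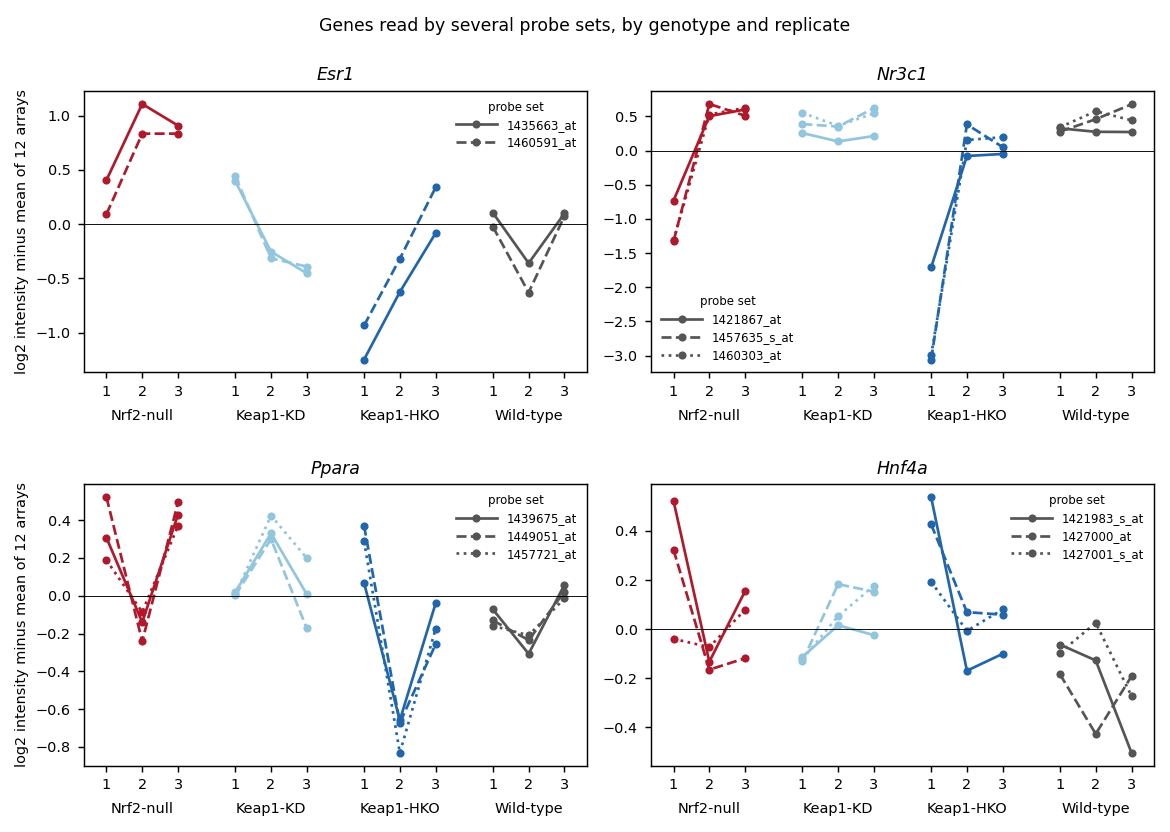
Log2 intensity minus the mean of 12 arrays (y axis) of each probe set (line style) of Esr1, Nr3c1, Ppara and Hnf4a on the 3 replicates of each genotype (x axis). Over 12 arrays the probe sets of Esr1, Nr3c1 and Ppara move together, with Pearson r between 0.87 and 0.99 within a gene. Those of Hnf4a do so less closely, with 0.53 to 0.71. Without replicate 1 of Keap1-HKO and Nrf2-null, r over the other 10 arrays was 0.58 to 0.82 for Nr3c1 and 0.29 to 0.76 for Hnf4a. It was 0.92 for Esr1 and 0.90 to 0.96 for Ppara.

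The glucocorticoid receptor Nr3c1 was low on the pair of arrays that stood apart. Its log2 intensity was 7.88, 9.73 and 9.82 in Nrf2-null livers, 9.75, 9.56 and 9.74 in Keap1-KD livers and 6.20, 9.35 and 9.39 in Keap1-HKO livers, against 9.54, 9.77 and 9.64 in wild-type livers. Keap1-HKO replicate 1 lay -3.17 log2 units from the mean of the other Keap1-HKO livers and Nrf2-null replicate 1 lay -1.89 from the mean of its own, deviations larger in size than those of 96.7% and 94.8% of genes on the same arrays. All 3 Nr3c1 probe sets showed both. The Keap1-HKO difference from wild-type was -1.34 ± 0.78 log2 units (SE; limma, adjusted p = 0.366), and no Keap1-HKO array reached a wild-type array, as for 14.9% of genes. Without Keap1-HKO replicate 1 it was -0.28 (limma, adjusted p = 0.864). Without both of those arrays Nr3c1 differed by -0.40 log2 units between Keap1-HKO and Nrf2-null livers (limma, adjusted p = 0.0398), and 20.9% of all genes were called in that fit.

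Ahr behaved alike on those arrays. Its log2 intensity was 8.10, 8.82 and 9.75 in Nrf2-null livers, 9.77, 10.13 and 9.43 in Keap1-KD livers and 7.94, 9.37 and 9.82 in Keap1-HKO livers, against 9.67, 9.51 and 10.24 in wild-type livers. The lowest values were again replicate 1 of Keap1-HKO and of Nrf2-null, and all 4 groups overlapped. The differences from wild-type were -0.92 log2 units in Nrf2-null livers (95% interval -2.05 to 0.21; limma, adjusted p = 0.823) and -0.77 in Keap1-HKO livers (-1.90 to 0.36; limma, adjusted p = 0.417), which shrank to -0.52 without Nrf2-null replicate 1 and to -0.22 without Keap1-HKO replicate 1.

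The deviations of this pair of arrays had the same sign for 9 of the 10 genes, and for 85.9% of all genes. Nr1i3 was 1.15 and 1.24 log2 units above the mean of its group's other arrays on Keap1-HKO replicate 1 and Nrf2-null replicate 1, and Nr1h3 1.16 and 0.52 above. Nr3c1, Ahr and Esr1 were below on both, Esr1 at -0.94 and -0.74 log2 units. Hnf4a deviated by 0.16 and -0.04.

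The genes whose levels followed Nr1i3 most closely over the 12 arrays were Hexa, a lysosomal hexosaminidase subunit (Pearson r = 0.97), Acsm1, a mitochondrial acyl-CoA synthetase (0.97), Ercc3, a helicase of transcription factor TFIIH (0.97), Fitm1, an endoplasmic reticulum protein of fat storage (0.97), and Limd2 (0.96). With the pair of arrays that stood apart left out, r over the other 10 arrays was 0.98, 0.96, 0.98, 0.96 and 0.95 in the same order. These correlations mix differences between genotypes with differences within them. Hexa differed from wild-type livers by -1.49 log2 units in Nrf2-null livers (limma, adjusted p = 0.0114) and by 0.98 in Keap1-HKO livers (limma, adjusted p = 0.0288), and Fitm1 by -3.24 and 2.06 (limma, adjusted p = 0.0114 and 0.0332). For the others, the differences from wild-type did not pass.

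Among the 10 genes themselves, the closest pair over 12 arrays was Nr1h4 with Ppara (Pearson r = 0.84, Spearman rho = 0.70), and r was 0.86 over the 10 arrays without the pair that stood apart. Ahr and Nr3c1 had r = 0.81 over 12 arrays and -0.14 over those 10. Nr1i3 and Esr1 had r = -0.71 and -0.62. Each array is 1 liver, so these points share RNA, hybridization and genotype.

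Genes that work with the receptors were counted between Keap1-HKO and Nrf2-null livers, where 9.14% of all genes were called. Of the dimer partners, 3 of 6 listed genes were measured, Rxrb, Arnt and Nr0b2 (small heterodimer partner), and 0 were called in any comparison with wild-type or between Keap1-HKO and Nrf2-null livers. Of 9 coactivators measured, Ncoa1 and Ncoa3 were lower in Keap1-HKO than in Nrf2-null livers, at -0.41 and -0.60 log2 units (limma, adjusted p = 0.0471 and 0.0441), and 0 of 6 corepressors were called. Of 5 chaperones of Ahr and of the CAR and glucocorticoid receptor complexes, the immunophilin Fkbp5 was 1.80 log2 units higher (limma, adjusted p = 7.76e-05). Of 8 other nuclear receptors measured, Pparg was 2.33 log2 units higher (limma, adjusted p = 0.000499) and Nr5a2 (liver receptor homolog) lower, at -1.22 (limma, adjusted p = 0.0495), in Keap1-HKO than in Nrf2-null livers. Pparg read 6.86, 6.15 and 6.25 in Keap1-KD livers, 7.19, 6.48 and 6.81 in Keap1-HKO livers and 4.54, 4.49 and 4.47 in Nrf2-null livers. An intensity of 100 is 6.64 in log2, and all Nrf2-null values were under it. So were 6.15 and 6.25 in Keap1-KD and 6.48 in Keap1-HKO livers. The size of the Pparg difference thus rests on the low end of the scale. With replicate 1 of Keap1-HKO and Nrf2-null left out, 8.91% of all genes were called higher and 12% lower. In that fit Nr2f6 was called lower as well (-0.97), and the other counts of these lists did not move.

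Target genes were counted between Keap1-HKO and Nrf2-null livers, where Nr1i3 differed most and 4.51% of all genes were called higher and 4.63% lower. Of 7 CAR targets measured, Abcc3 (Mrp3, a basolateral efflux transporter) and Aldh1a7 were called higher and none lower, with a list median of 0.64 log2 units against -0.05 for all genes. The study names Mrp3 as inducible by Nrf2 as well, and the part of Nr1i3 in the Abcc3 level was not tested. Abcc3 read 11.68, 11.78 and 11.72 in Keap1-KD livers, 12.90, 12.16 and 12.51 in Keap1-HKO livers and 8.23, 7.43 and 7.69 in Nrf2-null livers, against 11.20, 10.10 and 10.75 in wild-type livers, so that Nrf2-null and Keap1-HKO livers both stood clear of wild-type (-2.90 and 1.84 log2 units; limma, adjusted p = 0.00147 and 0.00743). Cyp2b10, the classical CAR target, was 3.07 log2 units higher in Keap1-HKO than in Nrf2-null livers and was not called (limma, adjusted p = 0.0604). It read 8.87, 7.34 and 8.94 in Keap1-HKO livers and 5.78, 4.21 and 5.94 in Nrf2-null livers, and the wild-type values of 8.60, 5.65 and 7.33 spread over the range between.

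The lists of the other receptors gave calls in both directions or few calls. They do not say whether a receptor raises or lowers a target, so the direction of a call does not measure receptor activity. Of 7 PXR targets 0 were called, and of 10 FXR targets Cyp7a1, the rate-limiting enzyme of bile acid synthesis, was lower, at -2.42 log2 units (limma, adjusted p = 0.0471). Of 11 LXR targets 2 were higher, the sterol transporters Abcg5 and Abcg8 (by 2.70 and 2.53), and 3 were lower, among them Cyp7a1, which is in both lists, and the desaturase Scd1, at -1.90. Of 15 PPARa targets the fatty acid translocase Cd36 was higher by 3.48, and Cyp4a14, Ehhadh and Plin2 were lower, Cyp4a14 at -7.16. Of 11 glucocorticoid receptor targets Fkbp5 and Zbtb16 were higher and Tat and Sgk1 lower, and of 12 HNF4a targets Tat alone was lower. Both measured Ahr targets were higher, Cyp1a2 by 0.91 and Nqo1, which is also a Nrf2 target, by 6.36. For comparison, 13 of 14 listed Nrf2 targets were higher.

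Several of these target counts moved with replicate 1 of Keap1-HKO and Nrf2-null left out, where 8.91% of all genes were called higher and 12% lower. The FXR list then had 1 gene higher, Fetub, and 2 lower, with the bile acid importer Slc10a1 added. The LXR list had 3 higher, with the lipoprotein lipase gene Lpl added, and 4 lower, with Srebf1, the gene of the lipogenic factor SREBP-1, added. The PPARa list had 2 higher, with the kinase gene Pdk4 added, and the HNF4a list 2 lower, with the gluconeogenic enzyme gene G6pc added. The glucocorticoid receptor list had 1 higher, as Zbtb16 was lost (limma, adjusted p = 0.0624), and the Nrf2 list 12 of 14. The CAR, PXR and Ahr counts did not move.

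**Figure D4:**
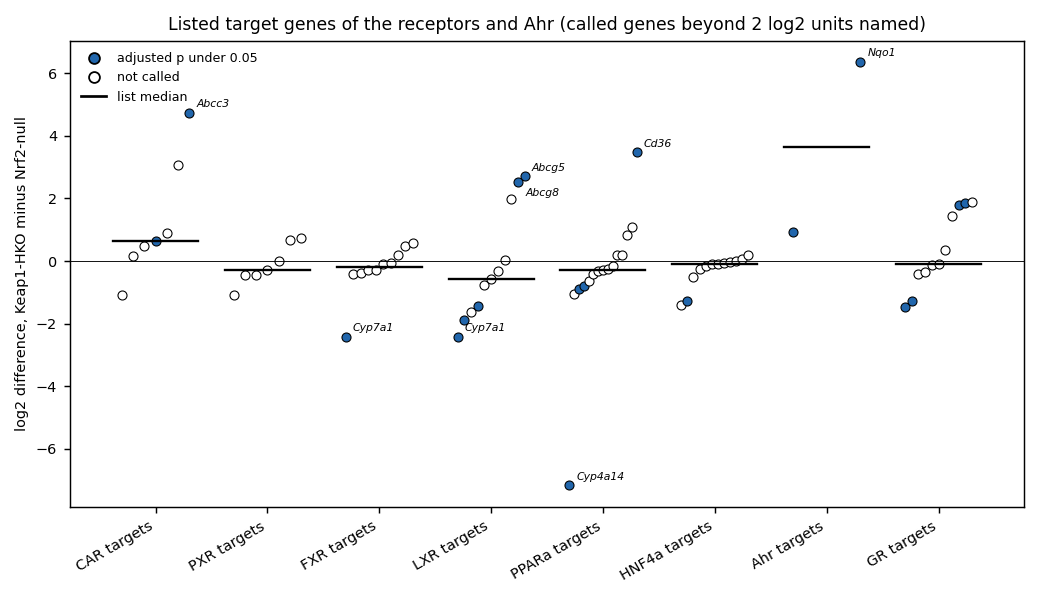
Log2 difference between Keap1-HKO and Nrf2-null livers (y axis) of every measured gene in 8 lists of receptor and Ahr targets (x axis); filled points passed limma at an adjusted p under 0.05, and bars are list medians. The CAR list has a median of 0.64 with Abcc3 on top, the LXR and PPARa lists hold called genes on both sides of 0, and the PXR list holds none.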

How the data were processed

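Total RNA of whole liver was labelled with biotin and hybridized to Affymetrix Mouse 430 2.0 arrays. The authors deposited log2 intensity values, computed from the scanner files with gcRMA (version not given in the sources used here), and the table holds those probe sets whose mean reached an intensity of 100 in some genotype, which was checked and held for every one. Background, normalization across arrays and probe summary were thus fixed upstream, and low values carry most of that choice. Probe sets with 1 gene symbol were kept (8554 of 9622; 371 had several and 697 none), and a gene with several was read by the one with the highest mean over 12 arrays. Array number limits the precision, since arrays hold no counts.

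limma 3.58.1 (R 4.3.3) was fitted once over the 4 genotypes, with Benjamini-Hochberg adjustment over 5856 genes, and was tested on simulated data. The labels number the replicates, and the study gives 3 mice per group with each on its own array. The p-values thus measure spread between arrays of separate animals. That spread also holds the arrays that stood apart and the pancreas and muscle transcripts of some livers. Of the pairs of arrays with 1 replicate number, 15 of 18 deviated together with a correlation over 0.1, and every pair did between Keap1-HKO, Keap1-KD and Nrf2-null, though not for pairs with wild-type. No source says what the replicate number marks, so this pairing comes from the data alone. A replicate block changed no call of the 10 genes among those 3 genotypes.

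Named genes were the 10 members, the targeted genes, up to 4 genes per list by overall F test and the 5 genes most correlated with a member. The members and gene lists were chosen with earlier results of these data known. Alternatives were other scaling, filters, floors, probe set rules, variance models, array weights, 2 groups alone, Duncan's multiple range test of the study's methods, and left-out arrays.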

Additional observations from a re-analysis of the deposited data

How the results depend on the processing

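With 1 array left out in turn, the number of the 10 genes called ran between 0 and 1 for Keap1-HKO against wild-type and for Keap1-KD against Nrf2-null livers, and in both the gene was Nr1i3. In the other comparisons it did not move. Log2 differences that had both signs over these left-out arrays, none of them called in the fit over all arrays, were as follows. In Nrf2-null against wild-type livers, Nr1h4 ran between -0.29 and 0.12, Rxra between -0.071 and 0.11 and Nr3c1 between -0.85 and 0.12. In Keap1-KD against wild-type livers, Nr1h4 ran between -0.27 and 0.089, Nr1h3 between -0.085 and 0.17, Rxra between -0.18 and 0.021, Ahr between -0.21 and 0.18, Esr1 between -0.16 and 0.26 and Nr3c1 between -0.023 and 0.10. In Keap1-HKO against wild-type livers, Nr1h3 ran between -0.27 and 0.36, Rxra between -0.22 and 0.088, Ppara between -0.24 and 0.12 and Esr1 between -0.43 and 0.20. Nr3c1 in Keap1-HKO against Nrf2-null livers ran between -1.46 and 0.23, and its slope between -0.43 and 0.072.

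Without replicate 1 of both Keap1-HKO and Nrf2-null, 1 gene was called in Nrf2-null and 1 in Keap1-HKO livers against wild-type, Nr1i3 in both, and 2 each in Keap1-HKO against Nrf2-null livers and in the trend, Nr1i3 and Nr3c1, where 1.01%, 11.5%, 20.9% and 20.8% of all genes were called. Signs turned for Rxra (-0.071) and Nr3c1 (0.12) in Nrf2-null and for Nr1h3 (-0.27) and Esr1 (0.20) in Keap1-HKO against wild-type livers. Without the 3 arrays that held pancreas or muscle transcripts, Keap1-HKO keeps replicate 1 alone, which is then assumed to vary like the other groups. The calls were 4 against wild-type, 4 against Keap1-KD, 3 against Nrf2-null livers, 4 in the trend and 2 in the F test, where 38.5%, 41.3%, 31.4%, 29.5% and 14.6% of all genes were called. Nr1h3 (-0.085) and Esr1 (-0.11) in Keap1-KD and Rxra (0.38) and Ppara (0.075) in Keap1-HKO against wild-type livers turned sign.

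Array quality weights, whose estimation stopped before it converged, gave 3 calls in Nrf2-null and 3 in Keap1-KD against wild-type livers, 2 and 3 in Keap1-HKO and Keap1-KD against Nrf2-null livers, 2 in the trend and 4 in the F test, where 23.5%, 5.52%, 14.3%, 28.3%, 15.8% and 31.4% of all genes were called. Signs turned for Rxra (-0.076) and Nr3c1 (0.13) in Nrf2-null, Nr1h3 (-0.054) and Esr1 (-0.24) in Keap1-KD and Nr1h3 (-0.15) in Keap1-HKO against wild-type livers, and the Keap1-HKO difference of Nr1i3 from Keap1-KD was -0.0014. The cause of these shifts was not tested. With only the 2 groups compared, which leaves fewer arrays to estimate the spread, 0 genes were called in Keap1-HKO and 0 in Keap1-KD against Nrf2-null livers (Nr1i3 adjusted p = 0.0615 and 0.0867 by limma). Duncan's multiple range test, with no adjustment over genes, called 1 gene, Nr1i3, in Nrf2-null and 1 in Keap1-HKO against wild-type livers on log2 values, where 5.4% and 12% of all genes passed; on un-logged values it called 0 in Nrf2-null (5.05% of all genes) and 1 in Keap1-HKO against wild-type livers (11.5%) and 0 in Keap1-KD against Nrf2-null livers (7.48%). Fits of every probe set on its own called 2 genes in Keap1-HKO against Nrf2-null livers and 2 in the trend, Nr1i3 and Esr1. Small differences turned sign with another probe set of Nr3c1 (-0.090 and -0.018), the mean of its probe sets (-0.025) and the dimmer probe set of Esr1 (-0.051) in Keap1-KD, and with median centring for Rxra (0.0018) in Keap1-HKO against wild-type livers.

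With the replicate number as a block, 1 gene was called in Keap1-HKO against wild-type livers, Nr1i3 (limma, adjusted p = 0.0495), and the block changed no other call. Keap1-HKO and wild-type arrays of 1 number had correlations of deviations of 0.33, 0.39 and -0.16 for replicates 1, 2 and 3. Of all 1019 values recomputed for single genes, 934 kept direction and side of the threshold. Nr1i3 in Nrf2-null livers was under an intensity of 100 on 2 of 3 arrays, so the size of its difference from the other groups is limited by the low end of the scale.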

Other observations

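The genes that followed the other receptors most closely over the 12 arrays differed from gene to gene. Ppara ran with Apoa5, an apolipoprotein of triglyceride metabolism (Pearson r = 0.92 over 12 arrays, 0.95 over the 10 arrays without replicate 1 of Keap1-HKO and Nrf2-null), and with Dlc1, Fam160b1, Arih2 and Nr1h4. Nr1h4 ran with Zfp707, Dlc1, Gas1, Nags (the mitochondrial N-acetylglutamate synthase) and Ppara, at r between 0.84 and 0.88. Esr1 ran with the proteasome subunit gene Psmd1 (r = 0.92 and 0.94 over those 2 sets of arrays). Nr3c1 had the highest r of all with Suz12, a subunit of the Polycomb complex PRC2 (0.995), which was 0.84 over the 10 arrays. Fem1c led for Ahr, with 0.95 over 12 and 0.82 over 10 arrays. Hnf4a had the weakest best match of the 10, Tns2, with r = 0.86.

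Liver-enriched transcription factors other than Hnf4a had a median log2 difference of -1.07 between Keap1-HKO and Nrf2-null livers over 9 genes, against -0.05 for all genes, and 1 of the 9 was called lower, where 4.63% of all genes were. This was Foxa3, a forkhead factor of hepatocytes, which read 8.84, 9.07 and 8.25 in Keap1-HKO livers and 10.04, 9.97 and 9.81 in Nrf2-null livers (limma, adjusted p = 0.0141). Without replicate 1 of Keap1-HKO and Nrf2-null, 3 of the 9 were called lower, where 12% of all genes were, with Creb3l3 (-0.48) and Onecut2 (-0.91) added.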
